A study of Mus musculus with 4 samples.

Results

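The genes described here are Gsc and Lhx1, a pair of homeobox genes of the anterior primitive streak, seen through the genomic regions bound by the transcription factor OTX2 around them. Regions were given to a protein-coding gene when their midpoint fell inside it, taking the shortest of overlapping genes, and otherwise to the gene with the closest end, up to 100 kb away, with RefSeq genes of the mm10 genome. By this rule Gsc held 12 regions and Lhx1 held 13, together 25 of the 39615 regions in the 4 deposited lists. The lists came from CUT&RUN, which sequences the DNA that an antibody-tethered nuclease cuts free beside a chromatin protein. In the PS samples here anti-HA bound a tag on OTX2 in mouse lines named OTX2-dTAG-EGFP, of a BL6/129 hybrid background. Epiblast stem cells (EpiSCs) were held with FGF2 at 12.5 ng/ml, Activin A at 20 ng/ml and NVP at 175 nM. The WNT pathway activator CHIR at 3 uM, with Activin A at 40 ng/ml, brought them to a primitive streak (PS) stage in 16 h. The BMP receptor inhibitor LDN at 100 nM, with Activin A at 100 ng/ml, then gave definitive endoderm (DE) within 24 h. The samples here are 4 PS libraries of 500000 cells each, 3 with anti-HA, 1 from each of the lines 7H, 7H1 and 7H2, and 1 with control IgG from line 7H2. Libraries of EpiSCs and of DE cells were not analysed here. A difference between stages in the lists therefore cannot be told apart from a difference between libraries or experiments. The dTAG in the line name is a degron, a tag by which a protein can be degraded on demand, and the labels state no degrader treatment.

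Each list gives positions only, for regions bound in PS and in a stage that the list name writes as EPI (379 regions), in PS alone (1634), in PS and DE (6157) or in DE alone (31445). No height or value per library comes with a region, so depth is unknown, no spread between the anti-HA lines can be given, and anti-HA could not be set against IgG. The counts below are therefore descriptions with no test, each set beside the same count over all 21887 protein-coding genes. The lists hold no expression values, so the labelled cell types could not be checked against their markers.

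Gsc and Lhx1 are transcribed in the anterior streak and the organizer that forms from it, the tissue that gives rise to definitive endoderm and axial mesoderm. GSC is a paired-type homeodomain repressor, and LHX1 is a LIM-homeodomain activator that works through the adaptor protein LDB1. Loss of Lhx1 or of Otx2 in mouse embryos removes anterior head structures. NODAL and activin signals induce both genes, and OTX2 and GSC share a lysine in the recognition helix that favours the DNA letters TAATCC.

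The start of each gene lay under or next to an OTX2 region, and the nearest such region was in a different list for each gene. At Gsc (gene ID 14836, chromosome 12, 104471209 to 104473236, minus strand) the region belonged to the PS and DE list, at chr12:104473360-104473759. It was 400 bp wide and ran from 523 to 124 bases before the start. At Lhx1 (gene ID 16869, chromosome 11, 84517975 to 84525534, minus strand) the region belonged to the DE only list, at chr11:84525482-84525783. It was 302 bp wide, began 249 bases before the start and reached across it to cover the first 53 bases of the gene. Farther out, Lhx1 also had a PS and DE region of 68 bp, with its midpoint 0.532 kb before the start. The DNA under the nearest region of each gene is shown because these are the regions at the gene starts. It is given as far as RefSeq's promoter table (GRCm38.p6, the assembly of mm10) holds the letters. The Gsc line gives 220 of the 400 bp, chr12:104473360-104473579, and the Lhx1 line the 249 bases before the start, chr11:84525535-84525783, both 5' to 3' on the minus strand. Capitals mark the letters AATCC.
Gsc: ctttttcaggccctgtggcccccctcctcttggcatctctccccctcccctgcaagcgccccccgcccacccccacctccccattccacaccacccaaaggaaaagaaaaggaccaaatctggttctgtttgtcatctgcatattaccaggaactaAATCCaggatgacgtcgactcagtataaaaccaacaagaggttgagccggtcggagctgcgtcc
Lhx1: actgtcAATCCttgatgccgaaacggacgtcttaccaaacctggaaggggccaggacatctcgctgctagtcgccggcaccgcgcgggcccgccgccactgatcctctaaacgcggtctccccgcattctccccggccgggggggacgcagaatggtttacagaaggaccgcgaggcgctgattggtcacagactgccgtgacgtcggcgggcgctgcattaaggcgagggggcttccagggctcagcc

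Neither promoter window held an exact TAATCC. The windows span 250 bases before to 50 after a start, were searched on both strands, and held TAATCC for 7.56% of the 17492 protein-coding genes that have one. The windows of Gsc and Lhx1 also held no match to TAATTA (LIM homeodomain, 5.37% of genes), AATNNACA (FOXH1, 12.0%), TCACACCT (T-box, 1.35%), TGTTTAC (forkhead, 3.45%), CTTTGAT (TCF/LEF, 3.74%) or CAGACA (SMAD, 21.5%). The 5 letters AATCC, which lie inside TAATCC and were added after the sequences were read, occurred 1 time in each. Those letters stood at Gsc 187 to 183 bases before the start, and at Lhx1 243 to 239 bases before it. With 38.5% of genes carrying them, this is a common match. The 250 bases before the start were 59.2% G and C at Gsc and 64.8% at Lhx1, against a median of 55.6% over all protein-coding windows.

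A region of the PS and DE list touched the promoter window of 2.2% of the 17492 genes, Gsc among them with 127 shared bases. A region of the DE only list touched that of 15.9%, Lhx1 among them with 299 of 300 bases shared. Both starts are paired with the start of a long noncoding RNA gene read from the other strand. Gm10000 starts 294 bp from the start of Gsc and Lhx1os starts 126 bp from that of Lhx1, and the same regions covered 220 and 228 bases of their windows. A region there cannot be given to 1 gene of the pair by position.

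Gsc and Lhx1 held more PS and DE regions than most genes. Lhx1 held 6 and Gsc held 4, beside a median of 0 over all protein-coding genes. Of all genes, 16.3% had at least 1 PS and DE region, 0.781% had at least 4 and 0.228% had at least 6. Both genes held 7 DE only regions, beside a median of 1, where 50.1% of genes had at least 1 and 3.21% had at least 7. In the PS only list Gsc held 1 region and Lhx1 held 0, where 5.6% of genes held at least 1. In the EPI and PS list both held 0, and 1.45% of genes held at least 1, so a count of 0 is what most genes have. That list leaves out EPI regions also bound in DE, so binding in EPI at these genes stays unknown. With an assignment limit of 50 kb, Lhx1 held 2 PS and DE regions in place of 6, and Gsc held 4 DE only regions in place of 7. With regions of at least 150 bp, Gsc held 3 DE only regions. At least 4 PS and DE together with at least 7 DE only regions were found at 101 genes, 0.461% of all.

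**Figure D1:**
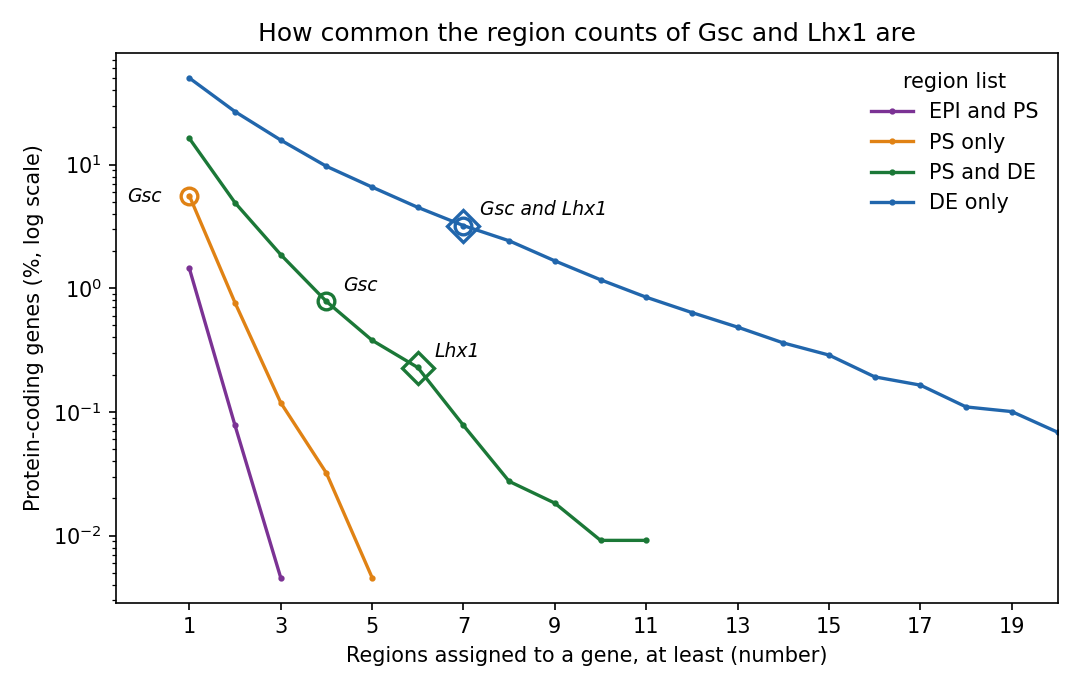
Share of protein-coding genes (%, log scale) that hold at least a given number of regions, drawn up to 20, with 1 line per region list. Circles mark Gsc and diamonds Lhx1: 4 and 6 PS and DE regions lie where 0.781% and 0.228% of genes remain, and both genes lie at 7 DE only regions, where 3.21% remain.

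The stretch of DNA whose regions the rule gives to a gene, its territory, was 130.5 kb for Gsc and 109.8 kb for Lhx1. Per 100 kb of territory Gsc held 9.2 regions and Lhx1 11.8. All assigned regions over the summed territories of all genes gave 1.81. By this density over all 4 lists, 5.71% of genes reached the value of Gsc and 3.52% that of Lhx1. By density, 3.03% of genes reached the PS and DE value of Gsc and 1.17% that of Lhx1. For DE only these shares were 10.7% and 8.05%. Over all 4 lists, 1.35% of genes held at least the 12 regions of Gsc and 1.04% at least the 13 of Lhx1.

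Of the DE regions listed at these genes, a larger part than in the lists as a whole was also bound at PS. At Gsc 4 of 11 listed DE regions (36.4%) were PS and DE, and at Lhx1 6 of 13 (46.2%). In the lists as a whole this held for 16.4% of 37602 DE regions. Seen from PS, 4 of the 5 listed PS regions at Gsc and all 6 at Lhx1 were also in DE, against 75.4% of 8170. DE regions also bound in EPI are in no list, so all these shares leave them out. These are shares of a few neighbouring regions, and no test of the difference was made.

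Before the gene starts lay 23 of the 25 regions. At Lhx1 13 of 13 midpoints lay before the start, and at Gsc 10 of 12, with the other 2, both DE only, 4.51 and 22.2 kb beyond the gene's end. Of all regions assigned outside a gene of known strand, 62.1% lay before the start. None of the 25 midpoints was inside Gsc (2.03 kb long) or Lhx1 (7.56 kb long), where 53.9% of the 34616 assigned regions of the series were inside their gene. The room on each side was unequal. The rule gives Lhx1 100.0 kb before its start but 2.19 kb beyond its end, where Aatf follows, and it gives Gsc 100.0 and 28.4 kb.

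**Figure D2:**
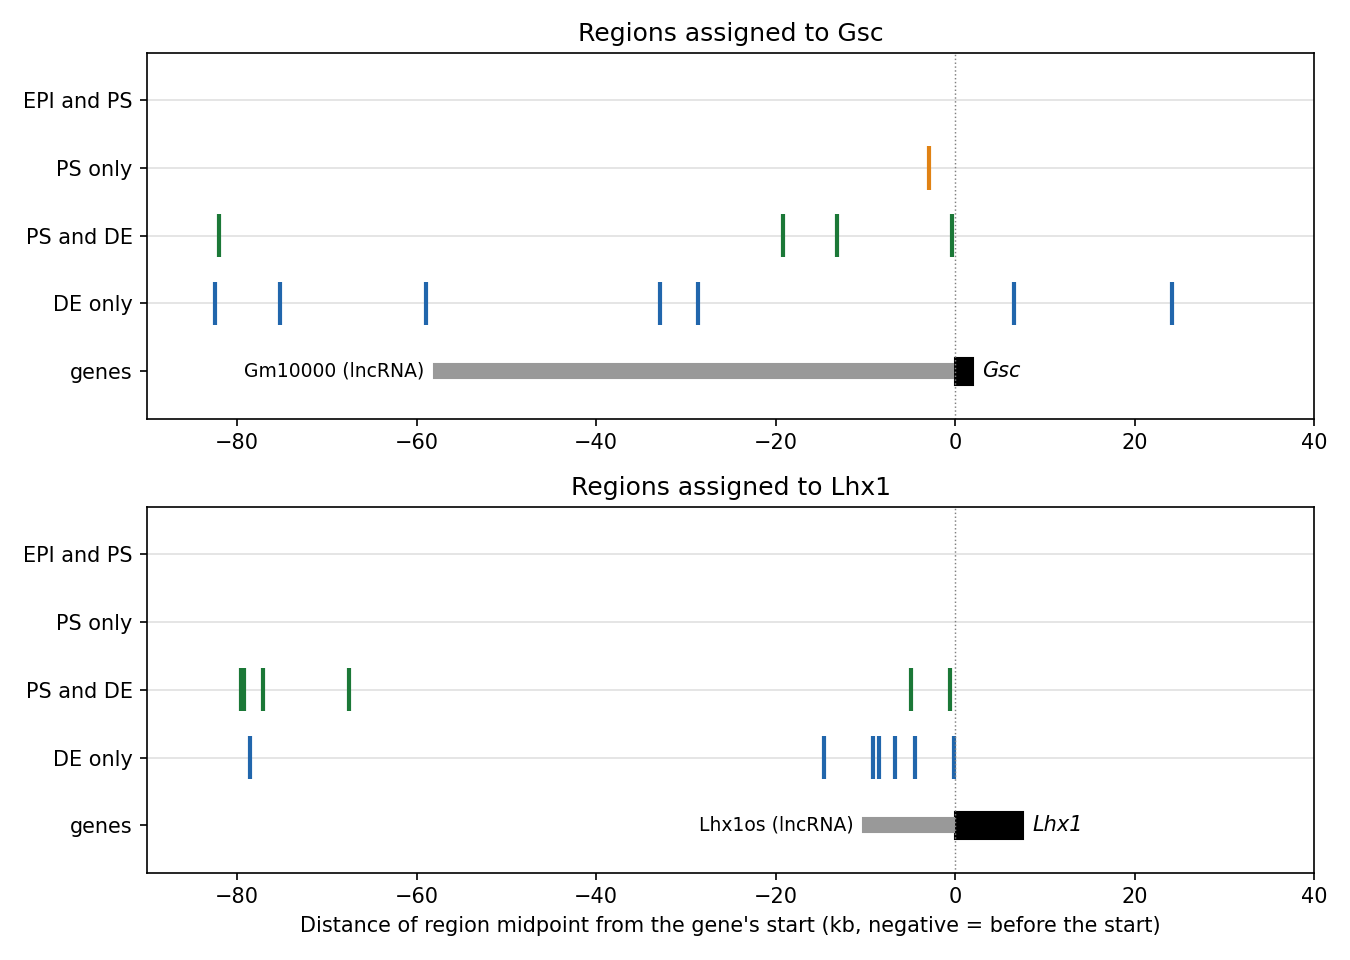
Midpoints of the regions assigned to Gsc (top) and Lhx1 (bottom) by distance from the gene's start in kb (negative is before the start), 1 row per region list, with the gene in black and the adjoining long noncoding RNA gene in grey. Gsc has 3 PS and DE regions and no DE only region in the last 20 kb before its start, while Lhx1 has 6 DE only and 2 PS and DE regions in the last 15 kb.

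Close before the start, the stages were arranged differently at the genes. The limits, 20 kb at Gsc and 15 kb at Lhx1, were drawn after the positions were seen. Within 20 kb before the start of Gsc there were 3 PS and DE regions, at 0.323, 13.2 and 19.2 kb, and the PS only region at 2.93 kb (chr12:104476090-104476237), with 0 DE only regions. The DE only regions on this side lay farther out, at 28.7, 32.9, 59.0, 75.2 and 82.4 kb. The last of them was 215 bp from the outermost PS and DE region, at 82.0 kb (chr12:104555148-104555382). On the other side of the start, the nearest DE only region lay 6.54 kb away.

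At Lhx1 the first 15 kb before the start held 6 DE only and 2 PS and DE regions, and the next regions came after a gap of 52.6 kb. The DE only midpoints of this near group lay at 0.098, 4.49, 6.67, 8.48, 9.1 and 14.6 kb, and the PS and DE midpoints at 0.532 and 4.94 kb. The far group, between 67.5 and 79.6 kb before the start, held 4 PS and DE regions and 1 DE only region. Its PS and DE regions lay at chr11:84592848-84593256, chr11:84602553-84602779, chr11:84604564-84604975 and chr11:84605050-84605169. The near group was thus mostly DE only and the far group mostly PS and DE, by limits drawn after the positions were seen.

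PS and DE regions stood close beside DE only regions at Lhx1. There, 4 of 6 had a DE only region within 1 kb, edge to edge, with gaps of 249, 179, 363 and 849 bp. The gaps of 363 and 849 bp run to the same DE only region, from PS and DE regions that lie 74 bp apart. At Gsc 1 of 4 did, with the gap of 215 bp given above. In the whole series 864 of 6157 PS and DE regions (14.0%) had such a neighbour. This comparison was not matched for the density of DE only regions, which at Lhx1 was 6.38 per 100 kb, a value reached by 8.05% of genes. Whether neighbours this close are separate sites or parts of 1 site was not tested.

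Regions at both genes included some of the widest of their lists. The PS and DE regions at Gsc measured 235, 323, 377 and 400 bp, and those at Lhx1 68, 120, 167, 227, 409 and 412 bp, against a median of 123 bp in the list. The widest 10.1% of the PS and DE list (its 90th percentile and above) held 3 of the 4 at Gsc and 2 of the 6 at Lhx1. The 412 bp region of the far group at Lhx1 was matched or passed by 1.01% of the list and the 400 bp region at the start of Gsc by 1.23%. The DE only regions ranged between 77 and 342 bp at Gsc and between 94 and 373 bp at Lhx1, against a median of 119 bp. Of these, 3 of 7 at Gsc and 2 of 7 at Lhx1 were in the widest 10.1% of their list. The PS only region at Gsc was 148 bp wide, against a list median of 115 bp. Width is no measure of height, and what sets it was not tested.

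**Figure D3:**
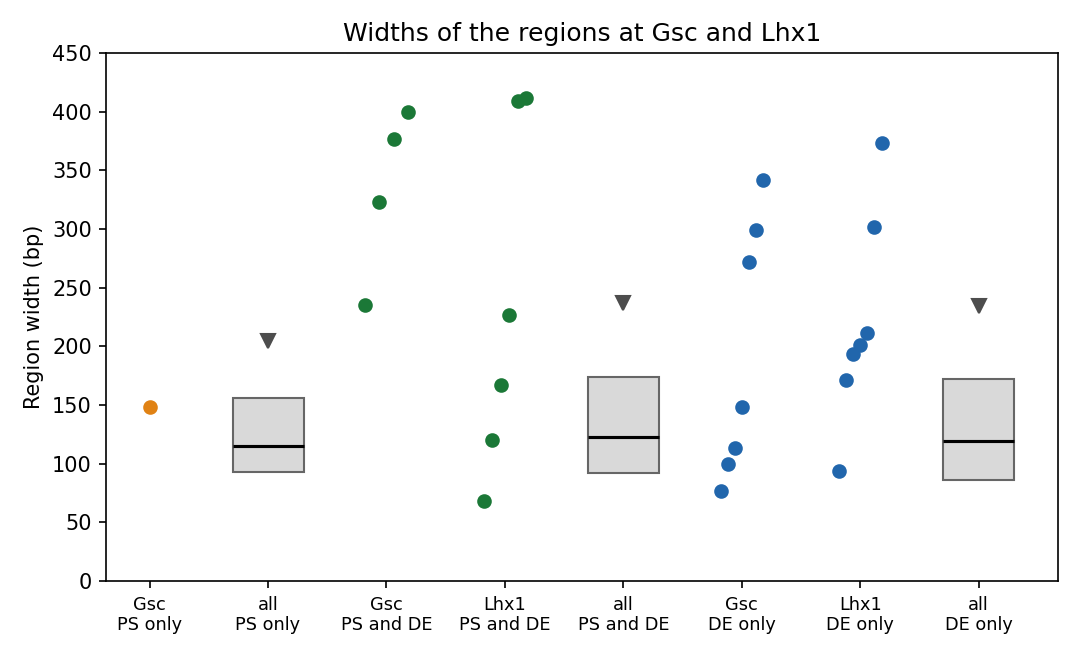
Region widths in bp at Gsc and Lhx1 (1 point per region) beside all regions of the same list (grey box, quartiles; line, median; triangle, 90th percentile). All 4 PS and DE regions at Gsc, 235 to 400 bp, lie above the list's upper quartile of 174 bp, while those at Lhx1 run between 68 and 412 bp.

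The neighbouring genes held few regions on the end side and more beyond the far side. Serpina3n, a serine protease inhibitor gene 56.9 kb beyond the end of Gsc, held 0 regions, and Dicer1, which encodes the enzyme that cuts microRNA precursors, 214.5 kb away on the other side, held 8, all DE only. Beside Lhx1, Aatf held 1 DE only region, centred 4.42 kb beyond the end of Lhx1. Mrm1, which encodes a mitochondrial ribosomal RNA methyltransferase and lies 287.5 kb away, held 3 PS and DE and 8 DE only regions. The farthest regions given to the members lay 82.4 kb from Gsc and 79.6 kb from Lhx1. The next ones outward lay 144.4 kb from Gsc, given to Dicer1, and 176.0 kb from Lhx1, given to no gene.

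Most of the 20 other genes listed for the organizer and anterior streak had a PS and DE region, with lower counts than Gsc at all but 2. At least 1 PS and DE region was found at 17 of the 20 genes, with a median of 2 regions, against 16.3% of all genes and a median of 0. Foxa2, the forkhead factor of node and endoderm, held 6, as many as Lhx1, and Eomes, the T-box factor that acts before it, held 5. In the DE only list Foxa2 held 12 regions, Otx2 itself 10 and Dkk1, which encodes a secreted WNT antagonist, 9. Nog, which encodes a BMP antagonist, held 1 PS only, 3 PS and DE and 6 DE only regions. Chrd, another BMP antagonist of the organizer, and Shisa2 held 0 in every list. A region of the PS and DE list touched the promoter window at 2 of the 20, Frzb and Cer1, which encode secreted antagonists, and a DE only region did so at 3: Dkk1, Otx2 and Eomes.

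**Figure D4:**
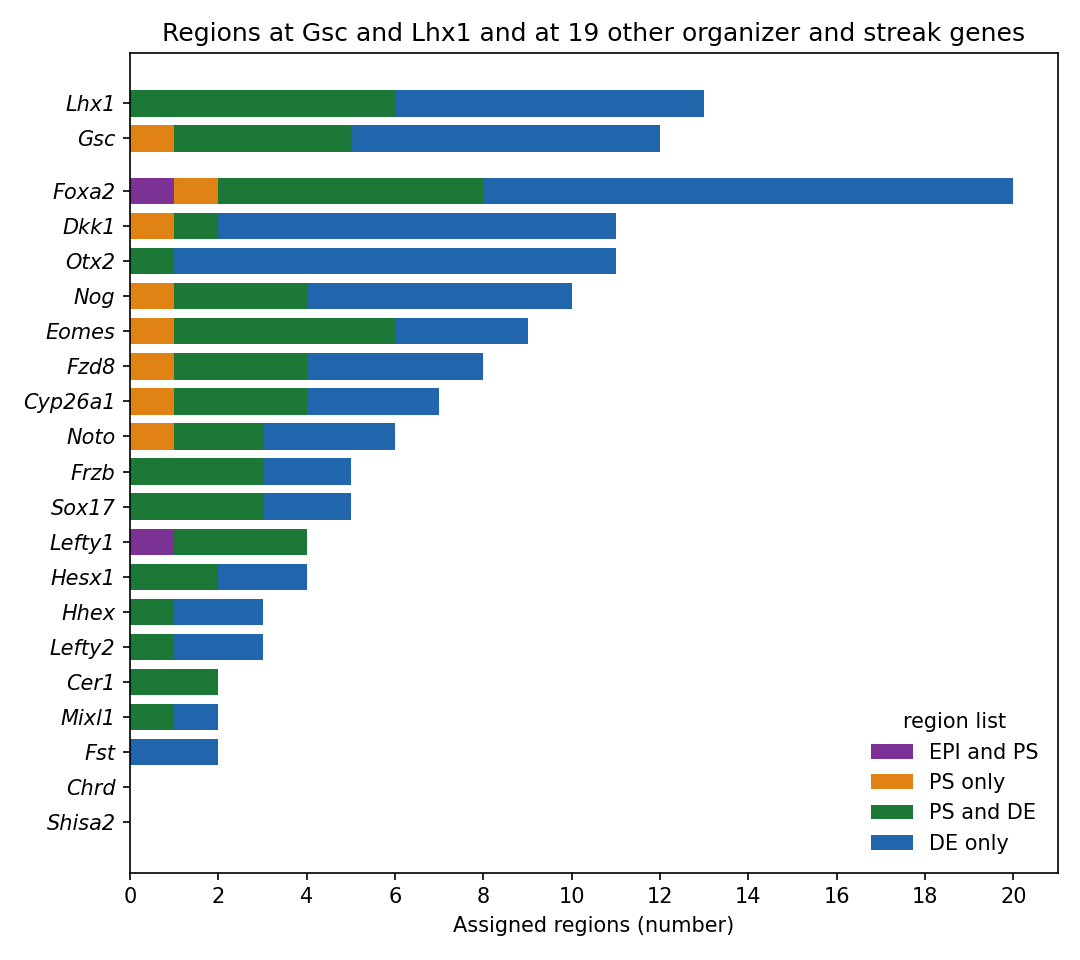
Number of assigned regions at Lhx1 and Gsc (top) and at 19 of the 20 other genes of the organizer and anterior streak list, with bars split by region list. Gsc and Lhx1, with 12 and 13 regions, are passed in total by Foxa2 with 20.

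In the list of inputs and in the gene families of the members, a smaller share of genes had a PS and DE region than in the organizer list. Of 14 NODAL and activin genes, 3 (21.4%) had a PS and DE region, 1 each, a share near the 16.3% of all genes. Nodal, the ligand, held 2 PS only, 1 PS and DE and 1 DE only region. Smad3, a transducer of these signals, held 6 DE only regions. Among 11 other LIM homeobox genes, 5 (45.5%) had a PS and DE region. Lmx1b came nearest to Lhx1, with 4 PS and DE and 9 DE only regions, Lmx1a held 2 PS only and 11 DE only, and Lhx5, the closest relative of Lhx1, held 6 DE only and 0 of the other lists. Of 6 cofactors of LIM domain proteins, 2 (33.3%) had one. Ldb2 held 4 PS and DE and 11 DE only regions over a territory of 563.8 kb, and Ssbp3, a partner of LDB1, held 3 and 11. Ldb1 itself held 1 DE only region.

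Among other paired-type homeobox genes with the same recognition helix lysine as GSC, Gsc2, the paralog of Gsc, held 1 DE only region and Otx1, the paralog of Otx2, 1 PS only region. For other cell types, a PS and DE region was found at 6 of 14 posterior streak and mesoderm genes (42.9%), at 4 of 10 pluripotency genes (40.0%) and at 1 of 10 neurectoderm genes. The first 2 shares lie above and the last below the 16.3% of all genes, with no test made. Among these 34 genes the highest PS and DE count was 4, at Esrrb, a nuclear receptor of naive pluripotency. DE only regions were spread more evenly, at 13 of 14, 9 of 10 and 7 of 10 genes, against 50.1% of all genes.

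The genes with the most similar counts over the 4 lists were of many kinds. Likeness was the sum of absolute differences in region number, with ties broken by territory length and 5 genes named for each member. Ift57 and Agap1 had the same 4 counts as Gsc (sum 0), and Car2, Boc and Hes1 differed by 1 region. No other gene had the counts of Lhx1. Ndst1, Pdlim5 and Clvs1 differed from it by 1 region, and Cxcr4, a chemokine receptor and surface marker of endoderm, and Hes1, a NOTCH target repressor, by 2. Territories of these genes ran between 89.5 kb at Ndst1 and 556.8 kb at Agap1.

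With genes of every biotype in the assignment, the long noncoding genes took nearly all regions. All 13 regions of Lhx1 then went to Lhx1os, a 10.2 kb gene. Of the 12 regions of Gsc, 10 went to Gm10000, a 57.8 kb gene, 1 to Gm40562, and 1 DE only region stayed with Gsc. Midpoints of 6 regions lay inside Gm10000 and of 6 inside Lhx1os. Which of the paired genes a region acts on was not tested.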

How the data were processed

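CUT&RUN was made on PS cells with anti-HA (1:100) or IgG, per the labels' protocols. The authors deposited 4 region lists with 3 columns, chromosome, start and end, and no other value; the list names give the stages. The submitters' processing notes name MACS2 2.2.6, bedtools 2.30, Picard 2.26.10, Bowtie2 2.3.5.1, SAMtools 1.14 and the mm10 build. No settings, peak threshold, role of the IgG library or rule for combining replicates and stages is given in the sources used here, and each could move list lengths and widths.

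Starts were converted to count from 1. Regions were assigned to 21887 RefSeq protein-coding genes of the same assembly with Python 3.11.15, numpy 2.4.6 and pandas 2.3.3, and 34616 of 39615 were assigned. Gene starts and strands came from RefSeq's promoter table. The assignment was tested on simulated positions. Regions at 1 gene are not replicates, so no p-value was computed. All 92 entries of the 8 gene lists matched by symbol. Named genes are the members, their neighbours, up to 5 genes per list with the most regions, the 5 most alike in counts, and Otx2. Not every gene so chosen is reported here. Genes outside this rule (Eomes, Chrd, Shisa2, Frzb, Cer1, and the noncoding genes) were chosen after their values were seen. The members and lists were chosen with earlier results of these data known. Alternatives covered width, merging, assignment distance and order, gene set and gap.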

Additional observations from a re-analysis of the deposited data

How the results depend on the processing

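No paired analysis was possible because the lists carry no value per library. Of 96 alternative values, 74 stayed within 1.5 times the reported one and 22 did not. The 74 include counts of 0 that stayed 0, for EPI and PS at both genes and for PS only at Lhx1. Width filters, joining and a shorter limit cannot raise a count of 0, so these say little about stability. Genes of every biotype gave Gsc 0 PS only, 0 PS and DE and 1 DE only region and Lhx1 0 PS and DE and 0 DE only. With 1 DE only region, Gsc was then equalled or passed by 31.7% of genes. Regions of at least 150 bp left Gsc 0 PS only and 3 DE only regions, and regions as wide as their list's median left 4 DE only. In that 150 bp setting the nearest DE only region of Gsc lay at 28.7 kb and the nearest PS and DE region of Lhx1 at 4.94 kb. An assignment limit of 50 kb, and counting every region within 50 kb of the gene, each gave 4 DE only regions at Gsc and 2 PS and DE at Lhx1. By density, the shares of genes at or above Gsc were 3.18% for PS only, 3.03% for PS and DE and 10.7% for DE only, and above Lhx1 1.17% and 8.05%. Measured to the nearest base, the start lay 0.124 kb from the PS and DE region of Gsc and 0 kb from the DE only region of Lhx1. Each alternative removes regions, adds genes or changes the measure, which can move these values but need not. Joined regions, the 1 Mb limit, no preference for the gene holding the midpoint, any base for the midpoint and gaps of 500 bp or 2 kb kept every value within 1.5 times. With no depth or height, weak regions cannot be told from strong ones.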

Other observations

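Beyond the 100 kb limit, 11 DE only regions lay between 176.0 and 224.6 kb before the start of Lhx1. Of these, 6 were given to no gene and the rest to Mrm1, where they are among the 8 DE only regions counted above. With a limit of 1 Mb, Lhx1 still held 7 DE only regions, so none of the 11 went to it. The widest of the 11, at chr11:84711407-84712119, measured 713 bp, a width that 7 of the 31445 DE only regions reach or pass, itself included. A PS and DE region lay in the same stretch, at chr11:84738825-84738969, and was also given to Mrm1.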
